A study of Mus musculus with 32 samples.

Results

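The genes described here encode the chains of integrins and laminins and the proteins that hold a basement membrane together or bind integrins beside it. They were chosen by gene symbol, with earlier results of these data known. Included were the integrin alpha and beta chains and Itgbl1, the laminin alpha, beta and gamma chains, both nidogens, perlecan (Hspg2), dystroglycan (Dag1), agrin (Agrn), fibronectin (Fn1), tenascin C (Tnc), the thrombospondins and periostin (Postn). Of 45 annotated mouse symbols that fit these names, 39 were among the 12791 genes of the 10 mM glucose table and 37 among the 12053 genes of the 1 mM glucose table, where Itga4 and Itgb7 were not listed. The other 6 (Itga2, Itgb6, Lama1, Lama3, Lamc3 and Thbs4) were not analysed here.

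The RNA-seq libraries came from mouse embryonic fibroblasts (MEFs), connective tissue cells of the embryo, in which Acly was knocked out; Acly encodes ATP-citrate lyase, the enzyme that makes acetyl-CoA from citrate. In all groups the cells carried an mCherry vector. WT cells expressed human ACLY tagged with mCherry, Cyto cells the same protein with an added nuclear export sequence, and Nuc cells the protein with added nuclear import sequences. KO cells expressed mCherry alone. WT therefore names a re-expressed enzyme on a knockout background and not a cell with an intact gene. Cells were kept for 24 h in 10 mM glucose (high glucose) or 1 mM glucose (low glucose) after growth in DMEM with 10% CS, and the question addressed by the design is whether the place of ACLY in the cell changes the response. There were 4 libraries of each construct in each medium, except for 3 Cyto libraries in 10 mM glucose, because the submitters described Cyto replicate 3 there as an anomaly, so 31 of 32 libraries were analysed. The labels do not say whether replicates were separate cultures, so p-values measure the spread between these libraries, which may be technical, and they do not say whether each construct was introduced more than 1 time. The libraries in 10 mM glucose were batch 2 and those in 1 mM glucose batch 1, so medium and batch cannot be told apart.

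Integrins are pairs of an alpha and a beta chain in the cell membrane that bind matrix outside the cell and, through adaptor proteins, actin inside it. Laminins are assembled from an alpha, a beta and a gamma chain and polymerise into the sheet of a basement membrane, which nidogens, perlecan and agrin connect to collagen IV. Cells hold that sheet through laminin-binding integrins and dystroglycan, whereas fibroblasts in loose tissue are known chiefly for integrins that bind fibronectin and fibrillar collagens.

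Levels are given on the log2 scale of the deposited tables, whose linear values behave as CPM (read counts scaled to a common library total). The ± after a level is the SD over libraries. A log2 fold change is the first construct minus the second within a medium, and its ± is limma's standard error (n = 4 libraries per construct, n = 3 for Cyto in 10 mM glucose). A gene was called at a Benjamini-Hochberg adjusted p under 0.05 in limma over all genes of its table. The comparisons with KO share the KO libraries, so their values are set side by side and not counted as separate evidence. In RNA from whole cultures, fewer cells of a type and less RNA per cell cannot be told apart.

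The labels were checked on the Acly row, which averaged 10.21, 9.74 and 9.12 in WT, Cyto and Nuc against 5.87 in KO at high glucose, and 10.57, 10.50 and 8.97 against 5.35 at low glucose. Every construct library lay above every KO library. The constructs carry human ACLY, and whether its reads are assigned to the mouse Acly row is not stated. Of the fibroblast markers, 9 of 9 were present in both tables, with summed levels of 30800 to 31200 CPM in WT, 23500 to 25900 in Cyto and 32800 to 35600 in Nuc against 17100 to 19100 in KO at high glucose. At low glucose the same sum was 41200 to 44600 in WT, 19000 to 22200 in Cyto and 32700 to 37900 in Nuc against 26200 to 30800 in KO. These sums moved with construct, and their part in the results was not tested. None of 6 epithelial markers was listed in either table. Of 5 endothelial markers 2 were listed at high glucose (Pecam1 and Tek, at most 5.68 CPM in sum) and 1 at low glucose (Tek, at most 3.07 CPM), of 6 leukocyte markers 2 (Csf1r and Lyz2, 6.93 to 32.2 CPM over both media) and of 5 muscle markers 1 (Des, 2.44 to 16.2 CPM).

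WT replicate 2 at low glucose stood apart. The median distance of a gene from the mean of the other WT libraries was 0.316 log2 units in it, against 0.073 to 0.154 in the other 15 libraries of that medium. It held 28 of 37 adhesion genes below the other WT libraries, and its deviations ran with transcript length (Spearman's rho of -0.6 across genes, which are not independent replicates). Nuc replicate 4 deviated most at high glucose (0.244). Values without WT replicate 2 are given beside the comparisons with WT whose calls it alters. Without Nuc replicate 4 at high glucose, Nuc against WT was no longer called for Lama5 (0.52, adjusted p = 0.0668) or Lamb2 (-0.18, adjusted p = 0.0676).

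Per kilobase of transcript, Fn1 was the most abundant of these RNAs. It reached 1680, 1670 and 1960 CPM per kb in WT, Cyto and Nuc against 987 in KO cells at high glucose, and 2490, 1970 and 2480 against 1410 at low glucose. Thbs1 followed, with 451, 641 and 601 against 409 CPM per kb at high glucose. Itgb1, the beta chain shared by the collagen, fibronectin and most laminin receptors, had 276, 225 and 287 against 204 CPM per kb. Among laminin chains the widely used Lamb1, Lamb2 and Lamc1 were the most abundant in KO cells, at 37.1, 31.5 and 34.4 CPM per kb at high glucose, while Lama2 had 0.161. Lamb3, a beta chain known from epithelia, had 0.626 CPM per kb there.

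**Figure D1:**
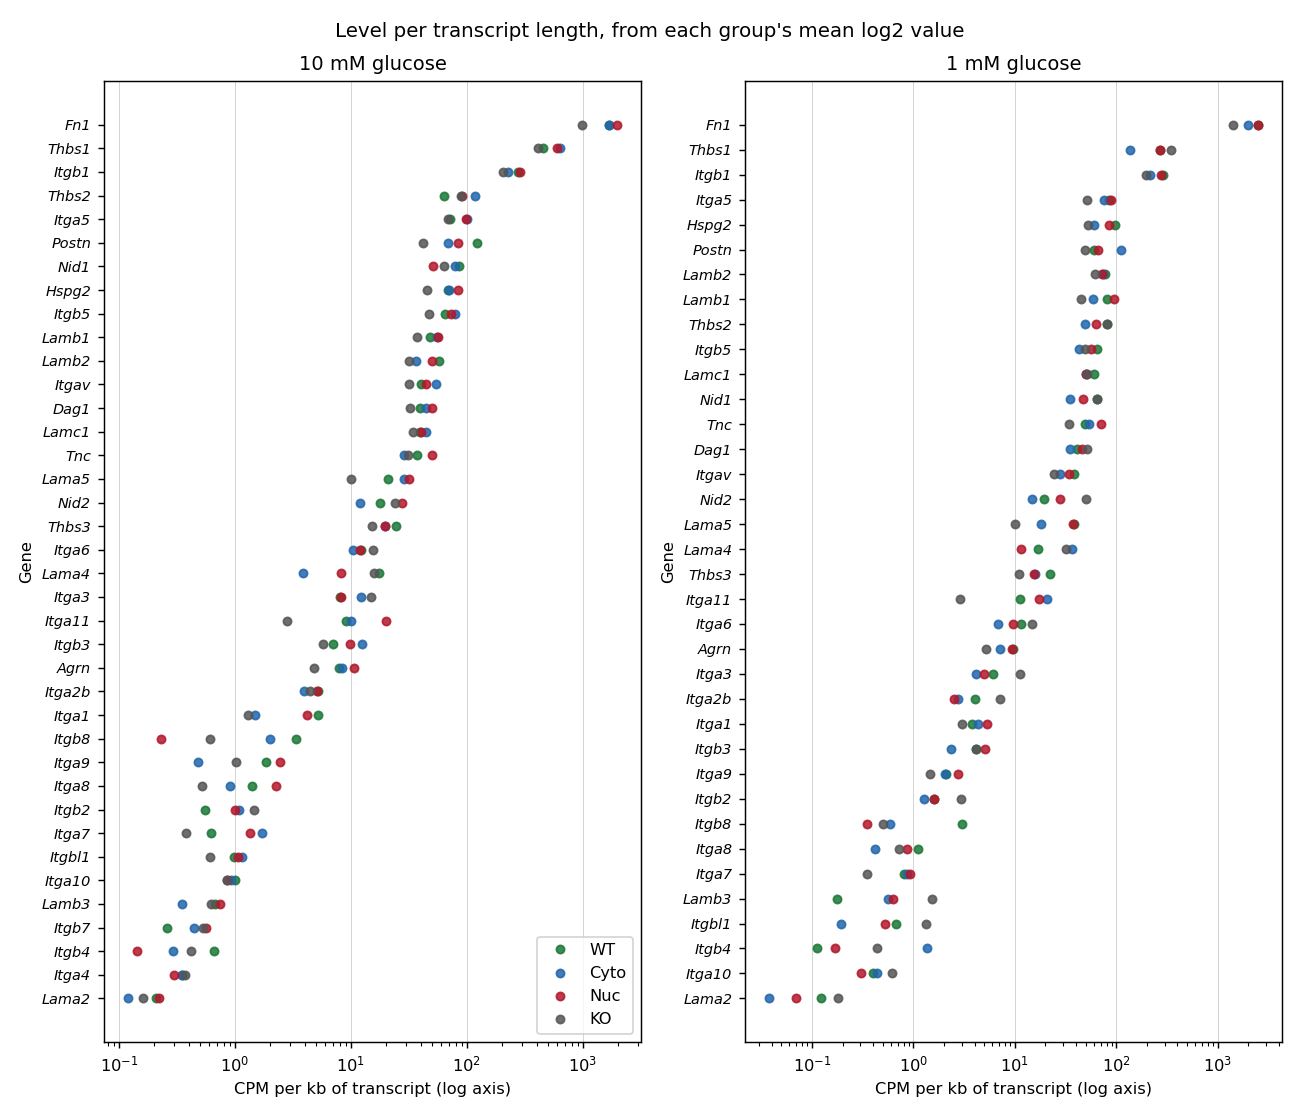
Level of the adhesion genes per kilobase of transcript (CPM per kb, log axis), by construct and medium; each marker is a group mean. Fn1 lies at the top in both media, at 1680 CPM per kb in WT against 987 in KO cells at high glucose, and Lama2 was the lowest in WT, Cyto and KO cells at high glucose.

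At high glucose, most of the adhesion genes were higher in cells with ACLY than in KO cells. Against KO, 23 of 39 (59%) were higher in WT, beside 20.6% of all genes, and 5 (12.8%) were lower, beside 20.2%. In Cyto 23 were higher and 4 lower, where 19.6% and 18.9% of all genes were called. Nuc cells had 23 higher and 6 lower, with 22.7% and 22.7% of all genes. The median log2 fold change of the adhesion genes was 0.44 in WT, 0.38 in Cyto and 0.51 in Nuc against KO, while the median over all genes lay between -0.03 and 0.01 in each of the 12 comparisons.

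At low glucose, counts in the 2 directions were closer. WT had 17 of 37 higher and 12 lower than KO, beside 29.7% and 28.5% of all genes. Without WT replicate 2 the counts were 21 and 11, with Itga1, Itga8, Itga9 and Nid1 added as higher and Dag1 no longer lower. In Cyto 15 were higher and 16 lower, where 31.7% and 33% of all genes were called, and in Nuc 18 were higher and 13 lower, where 30.5% and 29.5% were. The medians against KO were 0.27 in WT, 0.13 in Cyto and 0.18 in Nuc. With each library's trend on transcript length removed, the WT counts were 21 and 9.

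Nuc and Cyto, which differ in where ACLY is sent, were also compared directly. They differed in the level of the Acly row as well. It averaged 9.12 in Nuc and 9.74 in Cyto at high glucose, and 8.97 and 10.50 at low glucose. The place of ACLY and the level of this row cannot be told apart in this comparison. At high glucose 12 of 39 genes were higher in Nuc and 5 lower, beside 15.3% and 15.7% of all genes, and with the length trend removed 10 and 8. At low glucose 20 of 37 were higher in Nuc and 4 lower, beside 20.4% and 20.5%, with a median of 0.39. Against WT, Cyto cells at low glucose had 4 of 37 higher and 23 lower, beside 25.7% and 27.5% of all genes, with a median of -0.43. Without WT replicate 2 the totals were equal, but Itga2b was no longer called (-0.41, adjusted p = 0.0584) and Dag1 was called lower (-0.42, adjusted p = 4.5e-05). At high glucose 9 of 39 were higher in Cyto than in WT and 10 lower, beside 15.9% and 15.6%. Nuc cells had 14 of 39 higher and 7 lower than WT at high glucose, beside 15% and 13.8%, and 9 and 8 with the length trend removed. At low glucose 7 of 37 were higher in Nuc than in WT and 8 lower, beside 19.7% and 19.4%, and 6 and 15 with the length trend removed. Without WT replicate 2 the counts were 4 and 10. Itga1, Lamb3 and Lamb1 (0.19, adjusted p = 0.0567) were then no longer called, and Itga3 (-0.37, adjusted p = 0.0494) and Itgav (-0.27, adjusted p = 0.00809) were called lower.

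**Figure D2:**
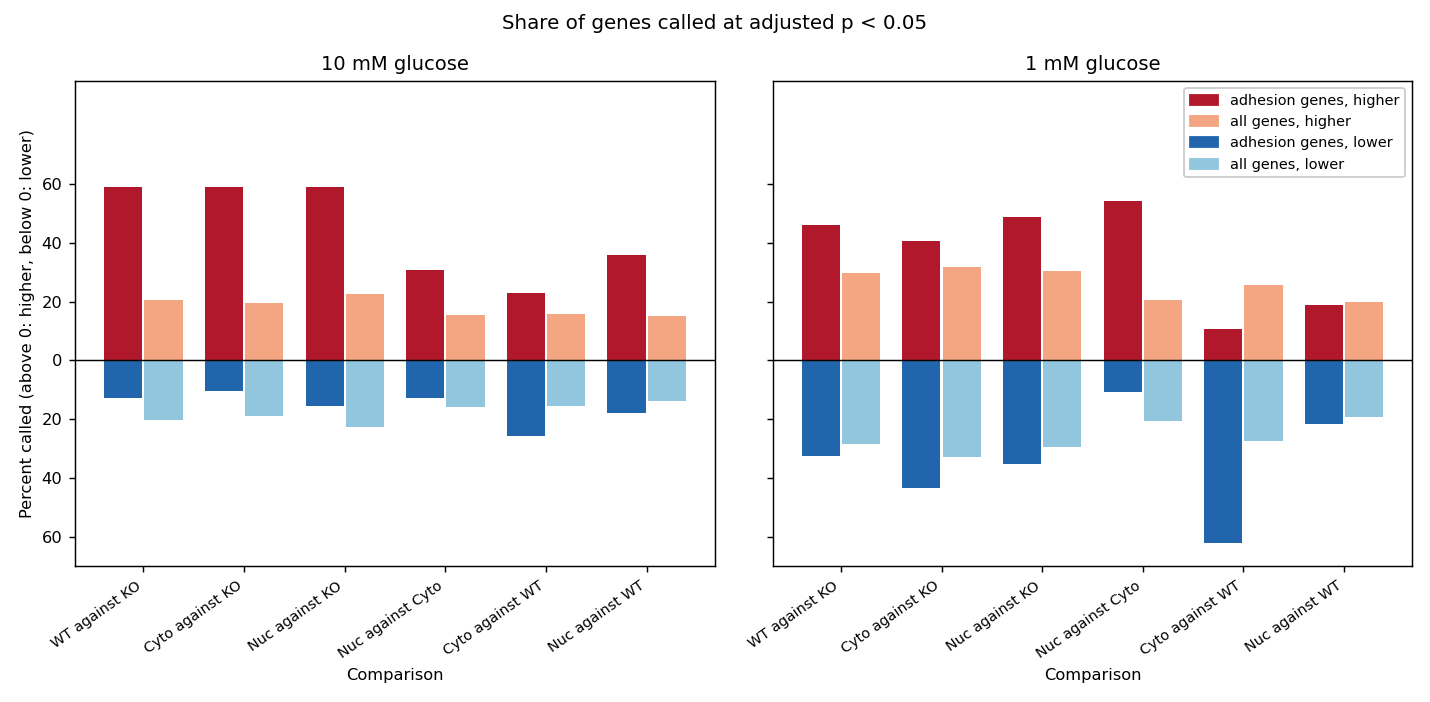
Share of the adhesion genes called higher or lower in each comparison (percent), drawn beside the share of all genes called in the same direction. At high glucose 59% of the adhesion genes were higher in WT than in KO cells, beside 20.6% of all genes, and at low glucose 23 of 37 were lower in Cyto than in WT.

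**Figure D3:**
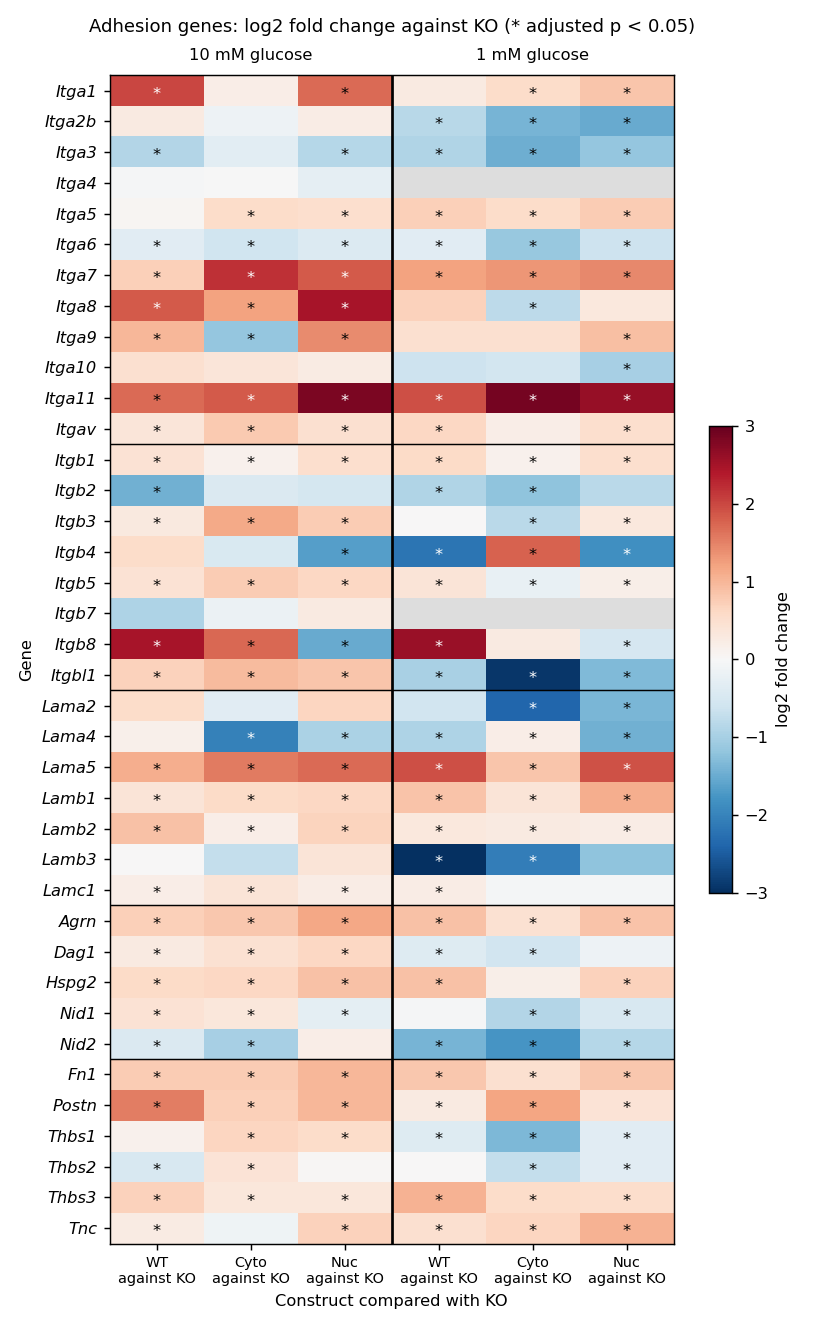
Log2 fold change of the adhesion genes in WT, Cyto and Nuc against KO cells in each medium, with genes grouped by role; the colour gives the size and sign and a star marks an adjusted p under 0.05 in limma. Itga11 was at 1.70 or above in all 6 columns, and Lama4 in Cyto was at -2.03 at high and 0.20 at low glucose.

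Among the alpha chains, Itga11 lay above KO in each ACLY line in both media, while Itga6 was called lower than KO in each, as was Itga3 except in Cyto at high glucose. Some of the Itga6 calls were lost without 1 library, as given below. Of 12 alpha chains at high glucose, 6 were higher and 2 lower in WT, 5 and 2 in Cyto and 7 and 2 in Nuc than in KO. Of 11 at low glucose, 4 and 3 were higher and lower in WT, 4 and 4 in Cyto and 6 and 4 in Nuc. Between Nuc and Cyto 4 (33.3%) were higher and 1 (8.33%) lower at high glucose, beside 15.3% and 15.7% of all genes. At low glucose 3 (27.3%) were higher and 0 lower, beside 20.4% and 20.5%. The shares higher at high glucose, 41.7% to 58.3%, were above the 19.6% to 22.7% of all genes. At low glucose those of WT (36.4% higher, 27.3% lower) and Cyto (36.4% each) were near the shares of all genes. The latter were 29.7% and 28.5% for WT and 31.7% and 33% for Cyto. Nuc had 54.5% higher and 36.4% lower, beside 30.5% and 29.5% of all genes. Cyto cells had 4 (33.3%) higher and 2 (16.7%) lower than WT at high glucose, beside 15.9% and 15.6% of all genes. At low glucose 1 (9.09%) was higher and 6 (54.5%) lower, beside 25.7% and 27.5%.

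Itga11, the alpha chain of a receptor for fibrillar collagen on fibroblasts, was called higher than KO in all 6 comparisons, with differences of 1.70 to 2.87, so the bases around its start are shown. The RefSeq window (GRCm38.p6, chr9:62677605-62677904, plus strand) runs from 250 bases before to 50 bases after the annotated start and is 68.0% G and C, against a median of 52.7% over all 32851 windows. It was searched on both strands for TATAAA, for GGGCGG and for CCAAT, and holds none of these letters, so it is printed in lower case throughout.
Itga11: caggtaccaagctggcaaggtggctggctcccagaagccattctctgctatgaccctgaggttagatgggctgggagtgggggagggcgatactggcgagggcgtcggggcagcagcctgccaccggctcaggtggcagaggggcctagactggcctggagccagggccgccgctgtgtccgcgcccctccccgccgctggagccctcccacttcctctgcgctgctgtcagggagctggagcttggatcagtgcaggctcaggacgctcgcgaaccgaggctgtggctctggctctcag

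Itga11 had log2 levels of 5.58, 5.54, 5.51 and 5.33 in WT and 5.78, 5.58 and 5.50 in Cyto libraries, and of 6.78, 6.66, 6.65 and 6.38 in Nuc, against 3.71, 3.88, 3.89 and 3.67 in KO libraries, at high glucose. Itga11 levels were 5.91, 5.30, 5.89 and 5.93 in WT and 6.71, 6.58, 6.68 and 6.79 in Cyto libraries, and 6.26, 6.56, 6.44 and 6.46 in Nuc, against 3.84, 3.87, 3.94 and 3.62 in KO libraries, at low glucose. The KO libraries were the lowest in both media with no overlap, the Nuc libraries were the highest at high glucose, and the Cyto libraries were the highest at low glucose. The log2 fold change against KO was 1.70 ± 0.10 (adjusted p = 1.62e-09) in WT, 1.83 ± 0.11 (adjusted p = 2.55e-09) in Cyto and 2.83 ± 0.10 (adjusted p = 2.96e-12) in Nuc at high glucose. The low glucose values were 1.94 ± 0.12 (adjusted p = 9.73e-10) in WT, 2.87 ± 0.12 (adjusted p = 4.85e-12) in Cyto and 2.61 ± 0.12 (adjusted p = 1.51e-11) in Nuc. Nuc exceeded WT by 1.13 ± 0.10 (adjusted p = 3.2e-07) at high and by 0.67 ± 0.12 (adjusted p = 0.000304) at low glucose, and Cyto exceeded WT by 0.93 ± 0.12 (adjusted p = 5.99e-06) at low glucose.

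Itga1, which pairs with Itgb1 to bind collagen IV and other collagens, had log2 levels of 5.95, 5.82, 5.98 and 5.55 in WT and 4, 4.01 and 4.04 in Cyto libraries, and of 5.61, 5.65, 5.64 and 5.15 in Nuc, against 3.85, 4.07, 3.86 and 3.52 in KO libraries, at high glucose. All WT and Nuc libraries lay above all Cyto and KO libraries, and the Cyto and KO libraries overlapped. Itga1 rose by 2.00 ± 0.13 (adjusted p = 8.85e-09) in WT and by 1.69 ± 0.13 (adjusted p = 4.24e-08) in Nuc against KO, and fell in Cyto against WT (-1.81 ± 0.15 (adjusted p = 1.19e-07)), so that Nuc stood 1.5 ± 0.15 (adjusted p = 9.64e-07) above Cyto. At low glucose its levels were 5.57, 4.42, 5.70 and 5.43 in WT and 5.44, 5.70, 5.57 and 5.56 in Cyto, and 5.90, 5.76, 5.77 and 5.97 in Nuc against 5.20, 5.18, 5.09 and 4.56 in KO libraries. There the Cyto libraries were all above KO, and WT replicate 2 was the lowest library of all 16. Nuc stood above WT by 0.57 ± 0.21 (adjusted p = 0.0372) at low glucose, a call lost without WT replicate 2 or Nuc replicate 1, 2, 3 or 4 (0.29 to 0.60, adjusted p 0.0543 to 0.0838). With WT replicate 2 left out, the gain of WT over KO at low glucose was 0.56 ± 0.12 (adjusted p = 0.000909), beside 0.27 with all libraries (adjusted p = 0.271). Itga10, a collagen receptor chain known from cartilage, was not called against KO at high glucose, at levels of 2.30 ± 0.30 in WT, 2.19 ± 0.37 in Cyto and 2.06 ± 0.43 in Nuc against 1.83 ± 0.94 in KO.

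Laminin-binding alpha chains went both ways. Itga3, known from receptors for epithelial laminins, had log2 levels of 5.31, 5.45, 5.31 and 5.14 in WT and 6.24, 5.69 and 5.63 in Cyto libraries, and of 5.09, 5.66, 5.17 and 5.34 in Nuc, against 6.25, 6.25, 6.05 and 6.13 in KO libraries, at high glucose. All WT and Nuc libraries lay below all KO libraries, and the Cyto libraries overlapped KO. Itga3 fell, with a log2 fold change of -0.87 ± 0.14 (adjusted p = 8.25e-05) in WT and of -0.86 ± 0.14 (adjusted p = 7.18e-05) in Nuc. At low glucose it fell against KO in WT (-0.90 ± 0.16), Cyto (-1.46 ± 0.16) and Nuc (-1.15 ± 0.16). At high glucose Nuc stood -0.54 ± 0.15 (adjusted p = 0.00999) from Cyto and Cyto 0.55 ± 0.15 (adjusted p = 0.00831) from WT. Both calls were lost, the first without Cyto replicate 1 (-0.35, adjusted p = 0.0762) and the second without Cyto replicate 1 (0.36, adjusted p = 0.0657). Itga6, which pairs with Itgb1 or Itgb4 as a laminin receptor, fell in Cyto, with a log2 fold change of -0.59 ± 0.14 (adjusted p = 0.00374) at high and of -1.14 ± 0.12 (adjusted p = 2.82e-07) at low glucose. Its WT call at high glucose (-0.35, adjusted p = 0.0416) was lost without any 1 KO or WT library (adjusted p 0.0501 to 0.0918). The WT call at low glucose (-0.34, adjusted p = 0.0203) was lost without KO replicate 1 or 3 (adjusted p 0.0527 to 0.0738). The Nuc call at high glucose (-0.41, adjusted p = 0.0174) was lost without Nuc replicate 1, 2 or 3 (adjusted p 0.0501 to 0.0622).

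Itga7, the laminin receptor chain best known from muscle, went the other way at a low level. Itga7 had log2 levels of 1.47, 0.89, 1.70 and 1.15 in WT and 2.99, 2.51 and 2.81 in Cyto libraries, and of 2.29, 2.61, 2.54 and 2.32 in Nuc, against 0.54, 0.73, 0.84 and 0.24 in KO libraries, at high glucose. Itga7 levels were 1.27, 1.95, 2.04 and 1.33 in WT and 2.06, 1.57, 1.40 and 2.04 in Cyto libraries, and 2.18, 1.79, 1.73 and 1.86 in Nuc, against 0.79, 0.48, -0.06 and 0.59 in KO libraries, at low glucose. No WT, Cyto or Nuc library overlapped the KO libraries in either medium, and at high glucose the Cyto and Nuc libraries also lay above WT. Against KO, Itga7 was higher by 2.18 ± 0.24 (adjusted p = 2.22e-06) in Cyto and 1.85 ± 0.22 (adjusted p = 3.46e-06) in Nuc at high glucose. The gains at low glucose were 1.2 ± 0.23 (adjusted p = 0.000311) in WT, 1.32 ± 0.23 (adjusted p = 9.2e-05) in Cyto and 1.44 ± 0.23 (adjusted p = 4.64e-05) in Nuc. Over WT at high glucose Itga7 rose by 1.47 ± 0.24 (adjusted p = 0.000179) in Cyto and by 1.14 ± 0.22 (adjusted p = 0.00091) in Nuc.

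Itgb4, the beta chain that joins Itga6 in the hemidesmosomes of epithelia, was near the bottom of the tables and spread widely within groups. Itgb4 had log2 levels of 2.00, 1.41, 0.75 and 3.02 in WT and 0.45, 1.28 and 0.69 in Cyto libraries, and of -0.24, 0.78, -1.30 and -0.86 in Nuc, against 0.63, 1.48, 0.75 and 2.14 in KO libraries, at high glucose. Itgb4 levels were 0.67, -1.87, -1.76 and -0.70 in WT and 3.08, 2.84, 3.66 and 2.55 in Cyto libraries, and -2.21, 1.5, -0.74 and -0.86 in Nuc, against 0.12, 1.98, 1.75 and 1.26 in KO libraries, at low glucose. The Cyto libraries at low glucose lay above all others there, and all other groups overlapped KO. Cyto exceeded WT by 3.95 ± 0.66 (adjusted p = 9.31e-05) at low glucose and Nuc lay below Cyto (-3.61 ± 0.66 (adjusted p = 0.00034)). With 1 added on the linear scale these differences were 2.51 and -2.32. Against KO at low glucose Itgb4 stood at -2.19 ± 0.66 (adjusted p = 0.00969) in WT, 1.76 ± 0.66 (adjusted p = 0.0283) in Cyto and -1.85 ± 0.66 (adjusted p = 0.0238) in Nuc. The Cyto call was lost without KO replicate 1 or 4 or Cyto replicate 1 or 3 (1.37 to 1.75, adjusted p 0.0505 to 0.099). The Nuc call was lost without KO replicate 2 or 3 or Nuc replicate 1 or 4 (-1.76 to -1.31, adjusted p 0.0534 to 0.0969). At high glucose Nuc was lower than KO (-1.66 ± 0.51 (adjusted p = 0.0137)) and than WT (-2.20 ± 0.51 (adjusted p = 0.00373)), and the difference from KO was -1.21 (adjusted p = 0.0771) with the libraries numbered 4 left out.

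Itga5, Itgav and Itga8 belong to the chains that bind the RGD motif of fibronectin and vitronectin. Itga5, the alpha chain of the main fibronectin receptor, rose against KO by 0.56 ± 0.06 (adjusted p = 9.89e-07) in Cyto and 0.51 ± 0.05 (adjusted p = 6.9e-07) in Nuc at high glucose, where WT was not called at levels of 8.30 ± 0.06 against 8.24 ± 0.09 in KO. At low glucose WT was the higher too, by 0.72 ± 0.06 (adjusted p = 1.66e-08), with 0.55 ± 0.06 (adjusted p = 2.13e-07) in Cyto and 0.77 ± 0.06 (adjusted p = 4.1e-09) in Nuc. Itgav, which joins several beta chains as a vitronectin receptor, rose by 0.79 ± 0.12 (adjusted p = 7.31e-05) in Cyto at high glucose and by 0.61 ± 0.13 (adjusted p = 0.000541) in WT at low glucose.

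Itga8, a receptor chain for nephronectin and other RGD ligands, had log2 levels of 2.97, 3.08, 3.13 and 2.93 in WT and 2.57, 2.34 and 2.27 in Cyto libraries, and of 4.32, 3.51, 3.59 and 3.24 in Nuc, against 0.19, 2.78, 0.40 and 1.41 in KO libraries, at high glucose. Itga8 levels were 2.92, 1.98, 2.90 and 2.78 in WT and 0.80, 1.22, 0.69 and 1.98 in Cyto libraries, and 2.03, 2.58, 1.84 and 2.68 in Nuc, against 2.18, 2.69, 1.43 and 1.53 in KO libraries, at low glucose. At high glucose the WT and Nuc libraries lay above all KO libraries, whose own range was the widest of the 4 groups, while at low glucose all groups overlapped KO. Itga8 rose against KO by 1.83 ± 0.41 (adjusted p = 0.00186) in WT and by 2.47 ± 0.41 (adjusted p = 0.00011) in Nuc at high glucose. Nuc stood above Cyto by 1.27 ± 0.44 (adjusted p = 0.0371), a call lost without Cyto replicate 1, 2 or 4 or Nuc replicate 1, 2 or 3 (1.06 to 1.36, adjusted p 0.0548 to 0.104). At low glucose Nuc exceeded Cyto by 1.11 ± 0.32 (adjusted p = 0.0113), and Cyto lay below WT (-1.47 ± 0.32 (adjusted p = 0.00106)). The gain of WT over KO there was 0.68 and not called (adjusted p = 0.0813). Without WT replicate 2 it was 0.90 ± 0.32 and called (adjusted p = 0.0232).

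Itga2b, known as the platelet chain of the fibrinogen receptor, was called at low glucose only among the comparisons with KO. Itga2b had log2 levels of 3.64, 4.23, 3.54 and 3.64 in WT and 3.46, 2.89, 3.56 and 2.89 in Cyto libraries, and of 2.66, 3.25, 3.39 and 3.06 in Nuc, against 4.66, 4.42, 4.67 and 4.63 in KO libraries, at low glucose. All KO libraries were above all others, and WT replicate 2 was the highest of the WT libraries. The fold changes against KO were -0.83 ± 0.19 in WT, -1.40 ± 0.19 in Cyto and -1.51 ± 0.19 (adjusted p = 2.97e-06) in Nuc, and Nuc lay below WT, with a log2 fold change of -0.67 ± 0.19 (adjusted p = 0.00933). At high glucose the levels were 4.16 ± 0.22, 3.75 ± 0.17 and 4.12 ± 0.22 in WT, Cyto and Nuc against 3.89 ± 0.30 in KO. Itga4, which binds VCAM1 on leukocytes and other cells, stood at 1.74 ± 0.38, 1.78 ± 0.08 and 1.5 ± 0.32 against 1.78 ± 0.55 at high glucose and was not called.

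Itga9, a chain of a tenascin C receptor, had log2 levels of 3.85, 3.97, 3.38 and 3.54 in WT and 0.77, 1.16 and 2.61 in Cyto libraries, and of 4.35, 3.95, 4.08 and 4.04 in Nuc, against 3.69, 1.66, 2.84 and 2.54 in KO libraries, at high glucose. The Cyto libraries were below WT and Nuc without overlap, and KO replicate 1 reached the level of WT. Nuc exceeded Cyto by 2.59 ± 0.41 (adjusted p = 0.000143) and Cyto lay below WT (-2.17 ± 0.41 (adjusted p = 0.000698)). Against KO, Nuc was higher by 1.42 ± 0.38 (adjusted p = 0.0056), and Cyto stood at -1.17 ± 0.41 (adjusted p = 0.0327). The Cyto call was lost without KO replicate 1 or 3 or Cyto replicate 1 or 2 (-1.11 to -0.79, adjusted p 0.0667 to 0.184) and was -1.76 with the libraries numbered 4 left out. At low glucose the levels were 3.82 ± 0.54, 3.82 ± 0.33 and 4.25 ± 0.25 in WT, Cyto and Nuc against 3.34 ± 0.29 in KO, and Nuc alone was called higher, by 0.91 ± 0.23. Without WT replicate 2 the WT gain of 0.73 ± 0.19 was called as well (adjusted p = 0.0029).

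Among the beta chains and Itgbl1, 5 of 8 were higher and 1 lower in WT than in KO at high glucose, 5 and 0 in Cyto and 4 and 2 in Nuc. Of 7 at low glucose the counts were 3 and 3, 2 and 4, and 3 and 3 in WT, Cyto and Nuc. At high glucose 50% to 62.5% were higher, above the shares of all genes, while at low glucose WT and Nuc had 42.9% in each direction and Cyto 28.6% higher and 57.1% lower. Of all genes at low glucose, 29.7% to 31.7% were higher and 28.5% to 33% lower. Itgb1 was abundant in every line. Its levels were 10.04 ± 0.02, 9.74 ± 0.06 and 10.10 ± 0.03 in WT, Cyto and Nuc against 9.60 ± 0.03 in KO at high glucose, and 10.11 ± 0.06, 9.66 ± 0.07 and 10.04 ± 0.04 against 9.53 ± 0.03 at low glucose. It rose by 0.50 ± 0.04 in Nuc at high glucose and by 0.58 ± 0.05 in WT at low glucose, values that were 0.33 and 0.26 after quantile normalization.

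Itgb8, which joins Itgav in a receptor that activates latent TGF-beta, differed between the ACLY lines, with the widest gap of any adhesion gene at high glucose, between Nuc and WT. Its RefSeq window (GRCm38.p6, chr12:119238227-119238526, minus strand) is 60.7% G and C and is shown because the gene moved in opposite directions in WT and Nuc. The capitals mark its single CCAAT, a motif that 37.4% of all windows hold on either strand, and neither TATAAA nor the motif GGGCGG was found.
Itgb8: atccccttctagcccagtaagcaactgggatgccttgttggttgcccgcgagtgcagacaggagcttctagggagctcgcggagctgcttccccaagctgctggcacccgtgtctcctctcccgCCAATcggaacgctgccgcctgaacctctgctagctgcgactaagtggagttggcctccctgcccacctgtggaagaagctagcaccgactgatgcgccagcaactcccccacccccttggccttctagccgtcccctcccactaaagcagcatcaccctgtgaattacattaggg

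Itgb8 had log2 levels of 4.97, 4.77, 5.02 and 4.52 in WT and 4.05, 4.12 and 4.07 in Cyto libraries, and of 1.52, 1.24, 0.64 and -0.06 in Nuc, against 2.40, 2.29, 2.49 and 2.21 in KO libraries, at high glucose. Itgb8 levels were 4.70, 4.09, 4.98 and 4.73 in WT and 2.39, 2.21, 2.35 and 2.29 in Cyto libraries, and 1.67, 1.73, 1.41 and 1.34 in Nuc, against 2.40, 1.98, 2.02 and 1.78 in KO libraries, at low glucose. The WT libraries were the highest in both media and the Nuc libraries the lowest, and Cyto lay between KO and WT at high glucose and overlapped KO at low glucose. Against KO at high glucose Itgb8 was higher by 2.47 ± 0.25 (adjusted p = 1.1e-06) in WT and 1.73 ± 0.27 (adjusted p = 9.68e-05) in Cyto, and lower in Nuc (-1.51 ± 0.25 (adjusted p = 0.00012)). The WT gain at low glucose was 2.58 ± 0.17 (adjusted p = 2.63e-09). Nuc lay below Cyto, with a log2 fold change of -3.25 ± 0.27 (adjusted p = 1.86e-07) at high and -0.77 ± 0.17 (adjusted p = 0.0018) at low glucose. Nuc lay below WT, with a log2 fold change of -3.98 ± 0.25 (adjusted p = 9.53e-09) at high and -3.09 ± 0.17 (adjusted p = 6.48e-10) at low glucose, and Cyto below WT, with a log2 fold change of -2.32 ± 0.17 (adjusted p = 9.96e-09) at low glucose.

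Itgb3 and Itgb5, the beta chains of vitronectin receptors, both turned between media in Cyto cells. Itgb3 had log2 levels of 5.41, 5.32, 5.39 and 5.26 in WT and 6.33, 6.09 and 6.11 in Cyto libraries, and of 5.92, 5.77, 5.83 and 5.76 in Nuc, against 4.84, 5.14, 5.12 and 5.10 in KO libraries, at high glucose. Itgb3 levels were 4.54, 4.43, 4.61 and 4.68 in WT and 3.73, 3.60, 3.81 and 3.84 in Cyto libraries, and 4.92, 4.86, 4.93 and 4.85 in Nuc, against 4.52, 4.51, 4.61 and 4.63 in KO libraries, at low glucose. Cyto libraries were the highest at high glucose and the lowest at low glucose, without overlap with any other group in either medium. Cyto exceeded WT by 0.83 ± 0.09 (adjusted p = 4.06e-06) at high glucose, and Nuc exceeded Cyto by 1.14 ± 0.07 (adjusted p = 4.01e-09) at low glucose. Against KO the Cyto value was 1.13 ± 0.09 at high and -0.82 ± 0.07 at low glucose. Itgb5 stood at 0.75 ± 0.10 and -0.22 ± 0.06 in the same 2 comparisons. The leukocyte chain Itgb2 was lower in WT than in KO at high glucose (-1.45 ± 0.46 (adjusted p = 0.0184)), a call lost without KO replicate 1 or 2 or WT replicate 2 (-1.31 to -1.10, adjusted p 0.0501 to 0.0685). Itgb7, another leukocyte chain, stood at -0.74 ± 0.92, 0.01 ± 1.04 and 0.46 ± 0.80 against 0.19 ± 1.08 in KO at high glucose and was not called.

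Itgbl1 encodes a secreted protein with repeats like those of integrin beta chains. Itgbl1 had log2 levels of 1.30, 1.16, 1.49 and 1.83 in WT and -0.10, -1.56, -0.46 and 0.15 in Cyto libraries, and of 1.26, 1.06, 0.76 and 1.26 in Nuc, against 2.55, 2.22, 2.57 and 2.32 in KO libraries, at low glucose. KO libraries were the highest and Cyto libraries the lowest, each without overlap with the rest. Against KO it fell, with a log2 fold change of -2.91 ± 0.29 (adjusted p = 1.53e-07) in Cyto and of -1.33 ± 0.29 (adjusted p = 0.000776) in Nuc, and Nuc stood 1.58 ± 0.29 (adjusted p = 0.000318) above Cyto, which lay below WT (-1.94 ± 0.29 (adjusted p = 2.75e-05)). With 1 added on the linear scale the Cyto changes were -1.85 against KO and -1.09 against WT, and the gap of Nuc over Cyto was 0.84. At high glucose the levels were 1.96 ± 0.35, 2.21 ± 0.23 and 2.11 ± 0.11 in WT, Cyto and Nuc against 1.27 ± 0.30 in KO. There Itgbl1 was higher than KO in WT (0.68 ± 0.21), Cyto (0.94 ± 0.23) and Nuc (0.84 ± 0.21), the WT call being lost without KO replicate 4 or WT replicate 3 (0.58 to 0.59, adjusted p 0.0506 to 0.0613). WT was lower than KO at low glucose (-0.97 ± 0.29).

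**Figure D4:**
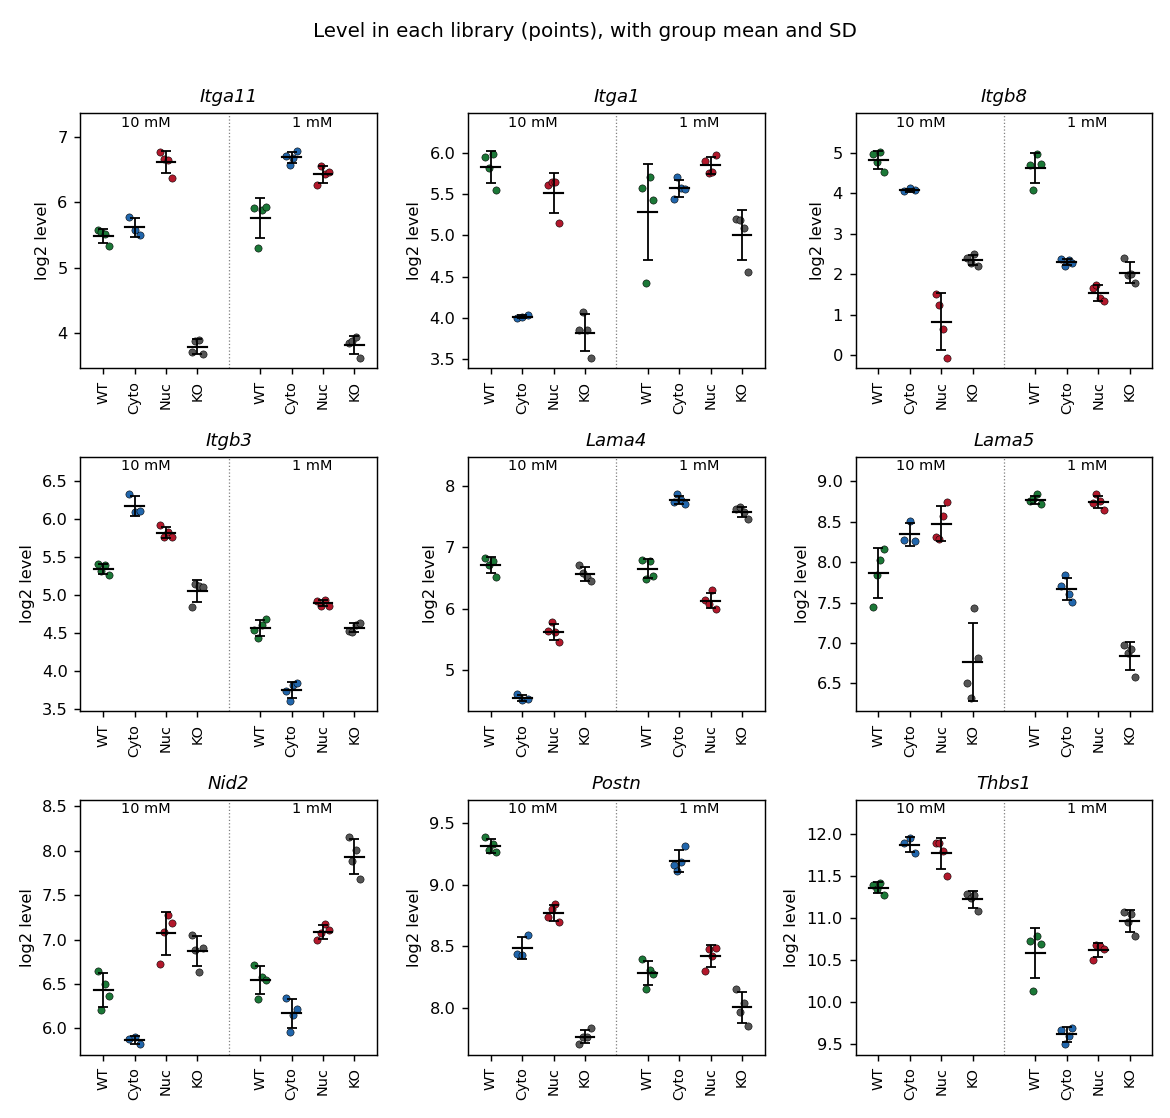
Log2 level of 9 adhesion genes in every library, with 10 mM and 1 mM glucose side by side and constructs in the order WT, Cyto, Nuc and KO; points are libraries, and lines with whiskers are group means with the SD. Itga11 lay between 3.62 and 3.94 in all KO libraries and at 5.30 or above in all others, and the Cyto libraries of Itgb3 were the highest at high and the lowest at low glucose.

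Of 8 laminin chains, 4 were higher and 0 lower in WT than in KO at high glucose, 4 and 1 in Cyto and 4 and 1 in Nuc. At low glucose 4 were higher and 3 lower in WT, 4 and 3 in Cyto and 3 and 2 in Nuc. Between Nuc and Cyto 2 (25%) were higher and 0 lower at high glucose, beside 15.3% and 15.7% of all genes. At low glucose 4 (50%) were higher and 1 (12.5%) lower, beside 20.4% and 20.5%. Each line had 50% higher than KO at high glucose, above the shares of all genes, and at low glucose WT and Cyto had 50% higher and 37.5% lower, and Nuc 37.5% and 25%. The low glucose shares of all genes were 29.7% to 31.7% higher and 28.5% to 33% lower. Among the more abundant chains, Lama5, Lamb1 and Lamb2 were called higher than KO in all 6 comparisons and Lamc1 in 4. Some of the Lamb2 and Lamc1 calls were lost without 1 library. Lama4, also among these chains, was called lower in 4 of the 6 and higher in 1. Lamb3, a beta chain known from epithelia, stood below KO at low glucose where it was called.

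Lama5, the alpha chain of most mature basement membranes, has a RefSeq window (GRCm38.p6, chr2:180225810-180226109, minus strand) of 72.7% G and C. It is shown because the gene rose in all 3 ACLY lines in both media. The capitals mark 4 matches of GGGCGG or its reverse complement CCGCCC. This motif was held by 16 of the 28 adhesion genes with a window (57.1%) and by 20 of their 34 windows, beside 35.7% of all windows. The windows of adhesion genes were also richer in G and C, with a median of 59.2%, beside 52.7% over all windows. The part of this in the share with the motif was not tested.
Lama5: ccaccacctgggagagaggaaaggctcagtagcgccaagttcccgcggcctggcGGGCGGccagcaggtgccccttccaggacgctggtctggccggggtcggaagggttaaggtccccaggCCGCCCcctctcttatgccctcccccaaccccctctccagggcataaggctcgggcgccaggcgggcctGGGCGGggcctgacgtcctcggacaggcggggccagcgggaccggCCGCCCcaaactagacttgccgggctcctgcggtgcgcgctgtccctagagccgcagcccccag

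Lama5 had log2 levels of 7.45, 7.84, 8.03 and 8.16 in WT and 8.27, 8.51 and 8.26 in Cyto libraries, and of 8.31, 8.29, 8.57 and 8.74 in Nuc, against 6.51, 6.32, 7.43 and 6.81 in KO libraries, at high glucose. Lama5 levels were 8.75, 8.78, 8.84 and 8.72 in WT and 7.71, 7.84, 7.61 and 7.51 in Cyto libraries, and 8.73, 8.84, 8.75 and 8.65 in Nuc, against 6.97, 6.88, 6.92 and 6.58 in KO libraries, at low glucose. KO libraries were the lowest in both media without overlap, and at low glucose the Cyto libraries lay between KO and the WT and Nuc libraries. Lama5 rose against KO by 1.10 ± 0.20 (adjusted p = 0.000281) in WT, 1.57 ± 0.21 (adjusted p = 2.01e-05) in Cyto and 1.71 ± 0.20 (adjusted p = 2.49e-06) in Nuc at high glucose. Its gains at low glucose were 1.94 ± 0.08 (adjusted p = 1.08e-11) in WT, 0.83 ± 0.08 in Cyto and 1.91 ± 0.08 (adjusted p = 8.29e-12) in Nuc. Cyto lay below WT, with a log2 fold change of -1.11 ± 0.08 (adjusted p = 9.21e-09) at low glucose. Nuc stood above WT by 0.61 ± 0.20 (adjusted p = 0.0274) at high glucose, a call lost without WT replicate 1 or 2 or Nuc replicate 3 or 4 (0.47 to 0.60, adjusted p 0.059 to 0.0972).

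Lama4, the alpha chain of vascular and mesenchymal basement membranes, moved apart from Lama5. Lama4 had log2 levels of 6.83, 6.71, 6.78 and 6.52 in WT and 4.60, 4.5 and 4.52 in Cyto libraries, and of 5.63, 5.78, 5.61 and 5.46 in Nuc, against 6.71, 6.58, 6.52 and 6.45 in KO libraries, at high glucose. Lama4 levels were 6.80, 6.49, 6.78 and 6.54 in WT and 7.75, 7.87, 7.78 and 7.71 in Cyto libraries, and 6.14, 6.08, 6.30 and 6.00 in Nuc, against 7.62, 7.66, 7.58 and 7.46 in KO libraries, at low glucose. Cyto libraries were the lowest at high glucose and the highest at low glucose, in both cases without overlap with any other group, and Nuc libraries lay below WT and KO in both media. At high glucose Nuc was lower than KO (-0.95 ± 0.09 (adjusted p = 1.73e-07)) and than WT (-1.09 ± 0.09 (adjusted p = 9.5e-08)), and Cyto was -2.03 ± 0.09 (adjusted p = 2.04e-10) against KO and -2.17 ± 0.09 (adjusted p = 1.18e-10) against WT. At low glucose Nuc was -1.45 ± 0.08 (adjusted p = 1.79e-10) against KO, -1.65 ± 0.08 (adjusted p = 1.18e-10) against Cyto and -0.52 ± 0.08 (adjusted p = 8.2e-05) against WT. Cyto exceeded WT by 1.13 ± 0.08 (adjusted p = 6.3e-09) there. Lama2, the alpha chain of muscle and nerve, stood at 0.96 ± 0.38, 0.08 ± 0.77 and 1.06 ± 0.29 in WT, Cyto and Nuc against 0.42 ± 0.96 in KO at high glucose. At low glucose it fell in Cyto, with a log2 fold change of -2.39 ± 0.37, a value of -1 with 1 added on the linear scale.

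Lamb1, the beta chain of many embryonic and adult laminins, rose against KO by 0.39 ± 0.05 in WT, 0.58 ± 0.05 in Cyto and 0.61 ± 0.05 in Nuc at high glucose. Its gains at low glucose were 0.86 ± 0.08 in WT, 0.38 ± 0.08 in Cyto and 1.09 ± 0.08 (adjusted p = 3.88e-09) in Nuc. Lamb2, known from the neuromuscular junction and the kidney glomerulus, rose at high glucose by 0.87 ± 0.07 in WT and 0.67 ± 0.07 in Nuc. Lamc1, the gamma chain of most laminins, rose by 0.38 ± 0.07 in Cyto at high glucose and stood at low glucose at 8.85 ± 0.13, 8.57 ± 0.08 and 8.57 ± 0.09 in WT, Cyto and Nuc against 8.62 ± 0.16 in KO.

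Lamb3 was low and variable here. Lamb3 had log2 levels of 0.64, -0.75, 0.06 and -2.17 in WT and 1.95, 1.99, -2.62 and 1.58 in Cyto libraries, and of 1.88, 1.85, 1.2 and 1.46 in Nuc, against 2.11, 2.63, 2.83 and 3.63 in KO libraries, at low glucose. All WT libraries lay below all KO libraries, and Cyto replicate 3 lay far below the other Cyto libraries. Lamb3 was lower than KO in WT (-3.35 ± 0.81 (adjusted p = 0.00194)), and with 1 added on the linear scale that change was -2.17. Cyto stood at -2.07 ± 0.81 (adjusted p = 0.0323) against KO, a call lost without KO replicate 2, 3 or 4 or Cyto replicate 3 (-2.13 to -0.96, adjusted p 0.0503 to 0.105) whose value was -0.96 without Cyto replicate 3. Nuc stood at 2.15 ± 0.81 (adjusted p = 0.0431) against WT, a call lost without KO replicate 2 or 3, WT replicate 2 or 4 or Nuc replicate 1, 2, 3 or 4 (1.61 to 2.29, adjusted p 0.0526 to 0.134). At high glucose it was not called in any comparison, at 1.48 ± 0.97, 0.74 ± 0.34 and 1.84 ± 0.27 in WT, Cyto and Nuc against 1.46 ± 0.75 in KO.

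The proteins that link laminin to the rest of the basement membrane did not move together: Nid2 lay below KO where it was called, and perlecan and agrin lay above KO where they were called. Of the 5 genes, 4 were higher and 1 lower in WT, 4 and 1 in Cyto and 3 and 1 in Nuc than in KO at high glucose. The shares higher (80%, 80% and 60%) lay above the 19.6% to 22.7% of all genes. The shares lower (20% in each line) were near the 18.9% to 22.7% of all genes. At low glucose the counts were 2 and 2 in WT, 1 and 3 in Cyto and 2 and 2 in Nuc. Between Nuc and Cyto all 5 were higher in Nuc there, beside 20.4% of all genes. For Dag1 that call (0.41 ± 0.15 (adjusted p = 0.0434)) was lost without KO replicate 2 or 3, Cyto replicate 1, 2, 3 or 4 or Nuc replicate 1, 2, 3 or 4 (0.37 to 0.44, adjusted p 0.0526 to 0.103), and for Nid1 (0.40 ± 0.15 (adjusted p = 0.0418)) without KO replicate 1, 2 or 3, Cyto replicate 1, 3 or 4 or Nuc replicate 1, 2, 3 or 4 (0.37 to 0.41, adjusted p 0.0502 to 0.0982). At low glucose WT and Nuc each had 40% higher and 40% lower, beside 29.7% and 28.5% of all genes in WT and 30.5% and 29.5% in Nuc. Cyto had 20% higher and 60% lower than KO there, beside 31.7% and 33% of all genes. Against WT at low glucose Cyto had 0 higher and 4 (80%) lower, beside 25.7% and 27.5% of all genes.

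Nid2, which like Nid1 bridges laminin and collagen IV, had log2 levels of 6.65, 6.21, 6.50 and 6.36 in WT and 5.88, 5.90 and 5.82 in Cyto libraries, and of 6.72, 7.09, 7.28 and 7.19 in Nuc, against 7.05, 6.88, 6.64 and 6.91 in KO libraries, at high glucose. Nid2 levels were 6.71, 6.33, 6.58 and 6.54 in WT and 6.34, 5.96, 6.15 and 6.22 in Cyto libraries, and 6.99, 7.07, 7.18 and 7.11 in Nuc, against 8.15, 7.89, 8.01 and 7.68 in KO libraries, at low glucose. Cyto libraries were the lowest at high glucose without overlap, and at low glucose KO libraries were the highest and Nuc the next, both without overlap. Nid2 fell against KO, with a log2 fold change of -0.44 ± 0.12 (adjusted p = 0.00678) in WT and -1 ± 0.13 (adjusted p = 1.2e-05) in Cyto at high glucose. At low glucose it fell, with a log2 fold change of -1.40 ± 0.10 (adjusted p = 7.13e-09) in WT, -1.77 ± 0.10 (adjusted p = 1.99e-10) in Cyto and -0.85 ± 0.10 in Nuc. Nuc exceeded Cyto by 1.2 ± 0.13 (adjusted p = 2.37e-06) and WT by 0.64 ± 0.12 (adjusted p = 0.000621) at high glucose.

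Nid1 had log2 levels of 9, 8.98, 9.16 and 8.97 in WT and 8.90, 8.86 and 8.99 in Cyto libraries, and of 8.40, 8.37, 8.35 and 8.03 in Nuc, against 8.65, 8.6, 8.68 and 8.41 in KO libraries, at high glucose. Nuc libraries were the lowest, with replicate 4 below the other 3, and the WT and Cyto libraries lay above KO without overlap. Nuc was below Cyto, with a log2 fold change of -0.63 ± 0.09 (adjusted p = 4.1e-05) and below WT, with a log2 fold change of -0.74 ± 0.08 (adjusted p = 4.03e-06). At low glucose the levels were 8.82, 7.88, 8.86 and 8.73 in WT, 7.63, 7.86, 7.74 and 7.74 in Cyto and 8.11, 8.20, 8.15 and 8.13 in Nuc, against 8.67, 8.66, 8.65 and 8.48 in KO libraries. The Cyto and Nuc libraries lay below KO, while WT replicate 2 lay far below the other WT libraries. With it left out WT was higher than KO by 0.19 ± 0.06 (adjusted p = 0.00715), beside -0.04 with all libraries (adjusted p = 0.836).

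Hspg2 (perlecan), a large heparan sulfate proteoglycan, rose against KO by 0.58 ± 0.09 in WT, 0.63 ± 0.09 in Cyto and 0.88 ± 0.09 in Nuc at high glucose, and by 0.87 ± 0.11 in WT and 0.69 ± 0.11 in Nuc at low glucose. After quantile normalization the WT values were 0.33 and 0.55. Agrn (agrin), the proteoglycan that clusters acetylcholine receptors at the neuromuscular junction and binds dystroglycan, rose by 0.71 ± 0.09, 0.80 ± 0.10 and 1.15 ± 0.09 in WT, Cyto and Nuc at high glucose and by 0.89 ± 0.08, 0.46 ± 0.08 and 0.85 ± 0.08 at low glucose. Dag1 (dystroglycan), the laminin and agrin receptor outside the integrin family, rose in Cyto by 0.45 ± 0.09 at high glucose and fell in Cyto, with a log2 fold change of -0.57 ± 0.15 at low glucose.

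The last group holds integrin ligands outside the basement membrane. Of Fn1, Tnc, Thbs1, Thbs2, Thbs3 and Postn, 4 were higher and 1 lower in WT, 5 and 0 in Cyto and 5 and 0 in Nuc than in KO at high glucose. At low glucose the counts were 4 and 1, 4 and 2, and 4 and 2. The shares higher were 66.7%, 83.3% and 83.3% at high and 66.7% in each line at low glucose, above those of all genes, whereas the shares lower at low glucose (16.7%, 33.3% and 33.3%) lay below or near them. Against WT at low glucose 1 (16.7%) was higher and 4 (66.7%) lower in Cyto, beside 25.7% and 27.5% of all genes.

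Postn, a secreted integrin ligand of fibroblasts that also binds collagen, has 2 RefSeq windows. The 1 shown (GRCm38.p6, chr3:54360857-54361156, plus strand) is 53.0% G and C and was picked because it holds TATAAA, marked in capitals. The other lacks TATAAA as written and is not shown. TATAAA is present in 3 of the 28 adhesion genes with a window (10.7%, with Thbs2 and Tnc). A gene is counted if any of its windows holds the motif. By window, 4 of the 34 windows of adhesion genes hold TATAAA, beside 13.6% of all windows. CCAAT was held by 9 of the 28 genes (32.1%) and by 10 of their 34 windows, against 37.4% of all windows. A match is a description of the letters and not a site or a cause.
Postn: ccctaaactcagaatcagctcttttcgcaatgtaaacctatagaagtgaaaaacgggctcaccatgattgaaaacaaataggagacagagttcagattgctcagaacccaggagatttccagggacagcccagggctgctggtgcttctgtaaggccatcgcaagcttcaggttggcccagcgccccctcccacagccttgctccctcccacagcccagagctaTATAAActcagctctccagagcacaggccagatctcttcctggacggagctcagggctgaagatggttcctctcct

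Postn had log2 levels of 9.38, 9.28, 9.33 and 9.26 in WT and 8.44, 8.43 and 8.59 in Cyto libraries, and of 8.74, 8.80, 8.84 and 8.70 in Nuc, against 7.71, 7.77, 7.77 and 7.84 in KO libraries, at high glucose. Postn levels were 8.40, 8.16, 8.31 and 8.28 in WT and 9.16, 9.11, 9.18 and 9.31 in Cyto libraries, and 8.30, 8.48, 8.42 and 8.49 in Nuc, against 8.16, 7.97, 8.04 and 7.86 in KO libraries, at low glucose. KO libraries were the lowest in both media, with WT replicate 2 next to KO replicate 1 at low glucose. WT libraries were the highest at high glucose and Cyto libraries the highest at low glucose. Cyto lay below WT, with a log2 fold change of -0.83 ± 0.06 (adjusted p = 2.67e-08) at high glucose and above WT by 0.90 ± 0.07 (adjusted p = 2e-08) at low glucose. At low glucose Cyto exceeded KO by 1.18 ± 0.07 (adjusted p = 3.32e-10), and Nuc lay below Cyto (-0.77 ± 0.07 (adjusted p = 2.28e-07)).

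Thbs1, a matrix protein that inhibits angiogenesis and activates latent TGF-beta, had log2 levels of 11.40, 11.35, 11.42 and 11.28 in WT and 11.89, 11.95 and 11.78 in Cyto libraries, and of 11.89, 11.89, 11.80 and 11.50 in Nuc, against 11.29, 11.24, 11.28 and 11.08 in KO libraries, at high glucose. Thbs1 levels were 10.73, 10.14, 10.79 and 10.69 in WT and 9.67, 9.50, 9.60 and 9.70 in Cyto libraries, and 10.50, 10.68, 10.67 and 10.63 in Nuc, against 11.07, 10.95, 11.05 and 10.79 in KO libraries, at low glucose. Cyto and Nuc libraries lay above KO at high glucose, whereas at low glucose Cyto libraries were the lowest of all groups and Nuc also lay below KO. The change against KO was 0.65 ± 0.09 in Cyto and 0.55 ± 0.08 in Nuc at high glucose, and -1.35 ± 0.11 and -0.35 ± 0.11 at low glucose. Thbs2, a close relative, had log2 levels of 8.51, 8.46, 8.63 and 8.52 in WT and 9.46, 9.41 and 9.42 in Cyto libraries, and of 9.15, 9.06, 9.07 and 8.91 in Nuc, against 9.10, 8.99, 9.06 and 8.93 in KO libraries, at high glucose. WT libraries were the lowest and Cyto the highest, both without overlap. Thbs2 was lower in WT than in KO, with a log2 fold change of -0.49 ± 0.06 (adjusted p = 5.5e-06), higher in Cyto than in WT by 0.90 ± 0.06 (adjusted p = 2.65e-08), and lower in Nuc than in Cyto, with a log2 fold change of -0.38 ± 0.06 (adjusted p = 0.000198). Thbs3, a thrombospondin of another subgroup, rose in WT by 0.68 ± 0.10 at high and 1.05 ± 0.12 at low glucose, and Nuc lay below WT, with a log2 fold change of -0.52 ± 0.12 (adjusted p = 0.00181) at low glucose.

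Fn1, the fibronectin that Itga5 and Itgav receptors bind, was the highest of all genes in 11 of 15 libraries at high and 13 of 16 at low glucose. Fn1 had log2 levels of 13.80, 13.73, 13.83 and 13.71 in WT and 13.81, 13.78 and 13.69 in Cyto libraries, and of 14.02, 14.10, 13.98 and 13.85 in Nuc, against 13.13, 12.99, 12.97 and 12.92 in KO libraries, at high glucose. Fn1 levels were 14.49, 13.90, 14.52 and 14.36 in WT and 13.94, 14.13, 14.01 and 13.92 in Cyto libraries, and 14.39, 14.37, 14.31 and 14.26 in Nuc, against 13.60, 13.51, 13.59 and 13.33 in KO libraries, at low glucose. KO libraries were the lowest in both media, without overlap. Against KO Fn1 rose by 0.76 ± 0.06 in WT, 0.76 ± 0.07 in Cyto and 0.99 ± 0.06 in Nuc at high glucose, values that were each 0.39 after quantile normalization. At low glucose it rose by 0.81 ± 0.11, 0.49 ± 0.11 and 0.82 ± 0.11, and quantile normalization, which gives the top gene of every library the same value, left 0.08, 0.24 and 0.24 with no call. Tnc, the tenascin of developing and wounded tissue, rose in Nuc by 0.69 ± 0.08 at high and 1.05 ± 0.10 at low glucose, and Nuc stood above WT by 0.57 ± 0.10 (adjusted p = 0.000218) at low glucose.

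The fold changes themselves were then compared between media, with the value at high glucose subtracted from that at low glucose, so that a higher fold change is one further towards positive values. Each is taken within its own table, but constructs that responded differently to the batch would add to it, and this cannot be told apart from glucose. For Cyto against KO, 5 of 37 genes had a higher and 21 a lower fold change at low glucose, beside 21.5% and 23.2% of all shared genes. For WT against KO the counts were 4 and 13, beside 13.5% and 12.7%, and 8 and 11 without WT replicate 2 at low glucose. Nuc against KO gave 4 and 15, beside 17.8% and 18.7%, and Nuc against Cyto 13 and 7, beside 9.47% and 9.48%.

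Of the Cyto to KO changes, 9 were called in opposite directions in the 2 media with the difference called as well. Dag1, Itga8, Itgb3, Itgb5, Itgbl1, Nid1, Thbs1 and Thbs2 were higher at high and lower at low glucose, and Lama4 the reverse. The calls of Itga8 were lost without KO replicate 1 or 3, WT replicate 2, Cyto replicate 1, 2 or 4 or Nuc replicate 3 (0.86 to 1.26, adjusted p 0.0501 to 0.12) at high and without KO replicate 1 or 2 or Cyto replicate 1, 2 or 3 (-0.81 to -0.55, adjusted p 0.0649 to 0.156) at low glucose. The Lama4 call at low glucose was lost without KO replicate 1, 3 or 4 or Cyto replicate 1, 2 or 3 (0.16 to 0.21, adjusted p 0.0512 to 0.125). The difference between media for Cyto against KO was -1.95 ± 0.11 (adjusted p = 6.58e-14) for Itgb3, -1.99 ± 0.15 (adjusted p = 1.22e-11) for Thbs1, -3.85 ± 0.38 (adjusted p = 2.51e-09) for Itgbl1 and 2.22 ± 0.12 (adjusted p = 2.32e-14) for Lama4. For Nuc against Cyto 5 genes turned: Lama4 (-2.73 ± 0.12 (adjusted p = 1.05e-15)) and Postn (-1.05 ± 0.09 (adjusted p = 1.03e-09)) were higher in Nuc at high and lower at low glucose, and Itgb3 (1.5 ± 0.11 (adjusted p = 5.28e-11)), Thbs2 and Nid1 the reverse. The Nid1 call at low glucose was lost without KO replicate 1, 2 or 3, Cyto replicate 1, 3 or 4 or Nuc replicate 1, 2, 3 or 4 (0.37 to 0.41, adjusted p 0.0502 to 0.0982), and the Itgb3 call at high glucose without Cyto replicate 1 (-0.28, adjusted p = 0.053).

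Of the WT to KO changes, Dag1 (0.28 at high and -0.38 at low glucose) and Itgbl1 were called in opposite directions, the Dag1 call at low glucose being lost without KO replicate 1, 2 or 3, WT replicate 2, Cyto replicate 1, 2, 3 or 4 or Nuc replicate 1, 2, 3 or 4 (-0.39 to -0.15, adjusted p 0.0507 to 0.119). The WT against KO changes differed most for Postn (-1.26 ± 0.09 (adjusted p = 3.09e-11)), Lama4 (-1.08 ± 0.12 (adjusted p = 5.76e-08)) and Itga5 (0.66 ± 0.07 (adjusted p = 7.5e-08)) by adjusted p. Itga5 was the highest of the called differences after Lama5 (0.84 ± 0.22 (adjusted p = 0.00598)). Nuc against KO had differences of -1.05 ± 0.16 (adjusted p = 7.67e-06) for Nid2 and of -0.90 ± 0.14 (adjusted p = 1.23e-05) for Thbs1.

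**Figure D5:**
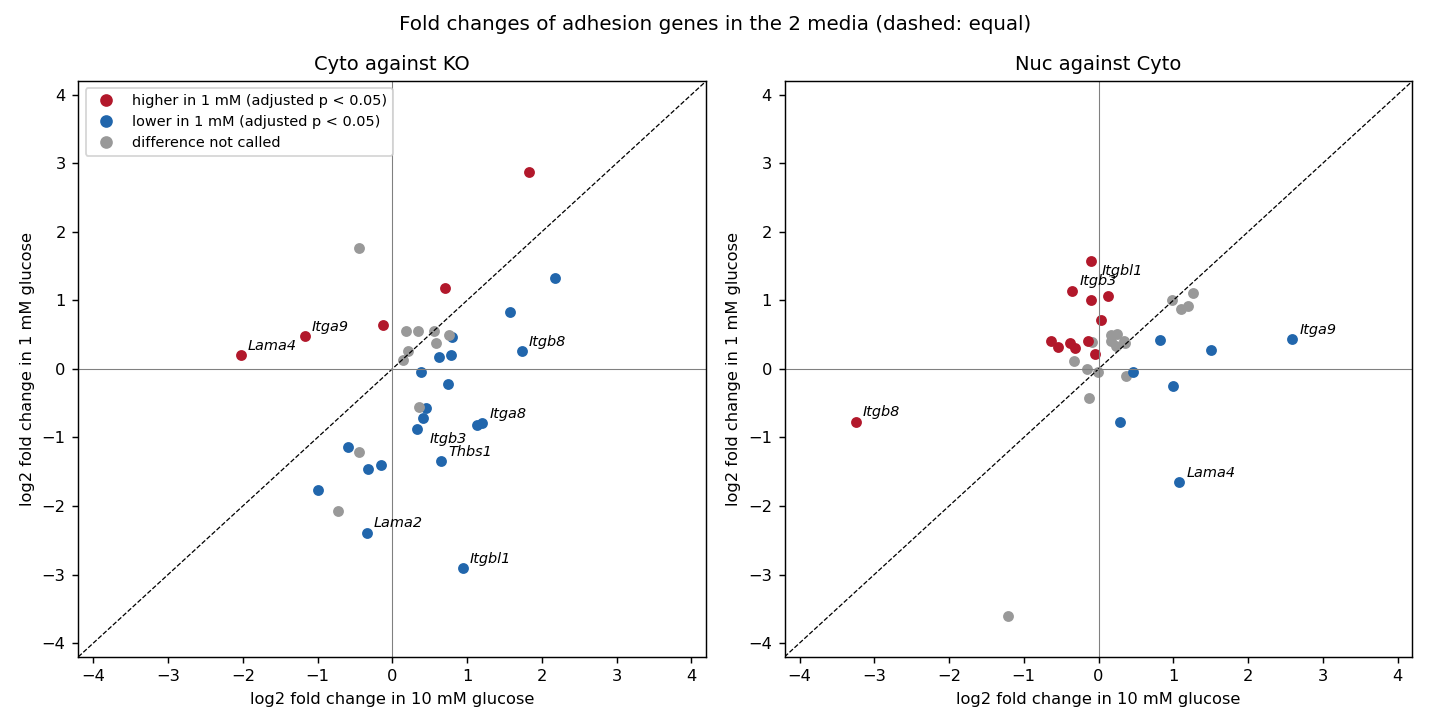
Log2 fold change of the shared adhesion genes in 10 mM glucose (x axis) and 1 mM glucose (y axis), for Cyto against KO and for Nuc against Cyto; red points have a higher and blue points a lower fold change at low glucose at an adjusted p under 0.05, grey points no call, and the dashed line marks equal values. Lama4, Itgbl1, Itgb3 and Thbs1 lie far from the line for Cyto against KO, with differences of 2.22, -3.85, -1.95 and -1.99.

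Genes of the same pathway outside these families were counted from 4 fixed lists. Of 34 focal adhesion and integrin adaptor genes at high glucose, 16 were higher and 9 lower in WT, 20 and 4 in Cyto and 20 and 5 in Nuc than in KO, and of 33 at low glucose 11 and 8, 7 and 14, and 12 and 9. At high glucose 47.1% to 58.8% were higher, above the shares of all genes, and at low glucose the WT shares (33.3% higher, 24.2% lower) and Nuc shares (36.4% and 27.3%) were near them. Cyto had 21.2% higher and 42.4% lower at low glucose, beside 31.7% and 33% of all genes. Ptk2 (focal adhesion kinase) rose against KO at low glucose by 0.79 ± 0.05 in WT, 0.95 ± 0.05 in Cyto and 0.79 ± 0.05 in Nuc. Vcl (vinculin, which links talin to actin) fell, with a log2 fold change of -0.84 ± 0.10 in Nuc at high glucose and of -1.56 ± 0.12 in Cyto and -1.42 ± 0.12 in Nuc at low glucose. Parva (alpha-parvin, a partner of integrin-linked kinase) fell in WT, with a log2 fold change of -0.73 ± 0.08 at high and -0.90 ± 0.07 at low glucose.

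Of 19 collagen and other basement membrane genes at high glucose, 8 were higher and 3 lower in WT, 7 and 3 in Cyto and 10 and 2 in Nuc than in KO, and of 17 at low glucose 10 and 4, 4 and 9, and 6 and 5. Higher calls made up 36.8% to 52.6% at high glucose, above the shares of all genes, and at low glucose WT had 58.8% higher, Cyto 52.9% lower, and Nuc 35.3% higher and 29.4% lower, near the background. Sparc, a collagen-binding matrix protein, rose by 0.92 ± 0.06 in WT and 1.27 ± 0.06 in Nuc at high glucose. Col4a1, a chain of collagen IV, was lower in Cyto than in WT, with a log2 fold change of -0.81 ± 0.05 at high and -1.57 ± 0.09 at low glucose. Smoc2, a basement membrane protein related to Sparc, fell in Cyto against KO, with a log2 fold change of -1.52 ± 0.06 and -0.80 ± 0.05.

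Of 23 genes of the dystrophin complex and of dystroglycan glycosylation at high glucose, 6 were higher and 2 lower in WT, 5 and 5 in Cyto and 10 and 2 in Nuc than in KO, and of 22 at low glucose 4 and 7, 8 and 8, and 9 and 7. The shares of WT (26.1% higher) and Cyto (21.7% in each direction) at high glucose and of Cyto at low glucose (36.4% each) were near those of all genes. WT had 8.7% lower at high glucose, beside 20.2% of all genes. Nuc had 43.5% higher and 8.7% lower at high glucose, beside 22.7% in each direction. At low glucose WT had 18.2% higher and 31.8% lower, beside 29.7% and 28.5%. Nuc had 40.9% and 31.8% at low glucose, beside 30.5% and 29.5%. Sgce (epsilon-sarcoglycan) stood above KO by 6.45 ± 0.30 in WT, 4.90 ± 0.33 in Cyto and 5.06 ± 0.30 in Nuc at high glucose. Dmd (dystrophin) rose in Nuc by 3.88 ± 0.62 at high and 4.06 ± 0.42 at low glucose. Of 15 other integrin ligands at high glucose, 6 were higher and 5 lower in WT, 5 and 6 in Cyto and 6 and 6 in Nuc than in KO, and of 14 at low glucose 5 and 8, 4 and 8, and 5 and 7. At high glucose the shares of these ligands, 33.3% to 40% in each direction, were above the 18.9% to 22.7% of all genes. Their shares higher at low glucose, 28.6% to 35.7%, were near those of all genes, and their shares lower, 50% to 57.1%, were above. Ccn2, a matricellular protein that binds integrins, rose by 1.29 ± 0.07, 1.34 ± 0.08 and 1.06 ± 0.07 in WT, Cyto and Nuc at high glucose, and Vcam1, the ligand of Itga4 receptors, fell in WT, with a log2 fold change of -1.43 ± 0.07 at low glucose. Between Nuc and Cyto at low glucose, where 20 of the 37 adhesion genes were higher in Nuc, 14 of the 33 adaptor genes and 8 of the 17 collagen and other basement membrane genes were higher in Nuc, beside 20.4% of all genes, and 4 (12.1%) and 4 (23.5%) were lower, beside 20.5%.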

How the data were processed

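Total RNA was sequenced, and 31 of 32 libraries were analysed. Per the submitters' processing notes, the authors used kallisto, edgeR and limma with GRCm39; no versions or parameters are given in the sources used here. The deposited tables hold gene-level log2 values, separately scaled for each medium, whose linear sums lie near the CPM total. Whole read counts were not derived from them, so depth is unknown and no counting interval is given. A row without a symbol was left out of each table.

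From there, group means were fitted to all libraries of a table with limma 3.58.1 (R 4.3.3; eBayes with an intensity trend), with Benjamini-Hochberg adjustment over all genes and a threshold of 0.05. Differences between media used 8 group means over the 11931 shared genes. The fit was tested on simulated data. The text names, with full statistics, the 4 highest and 4 lowest log2 fold changes among called genes of each comparison whose mean log2 level is at least 0, and gives every library for those named in at least 2 comparisons of a table; Thbs1, Fn1, and the second medium of some genes were added after their values were seen. A gene of these families is included in the counts, but its values are not reported here or drawn. Up to 3 genes with the smallest adjusted p are named per list of other genes. Transcript lengths came from GENCODE vM21 by symbol (96.3% of shared genes matched), and promoter windows from RefSeq. The genes and lists were chosen with earlier results of these data known. Alternatives were equal library medians, quantile normalization, adding 1 before taking logs, keeping genes with a mean log2 of 0 or more, no trend, array weights, a length trend, fewer groups and leaving out libraries. Figures were drawn with matplotlib 3.10.9.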

Additional observations from a re-analysis of the deposited data

Results flagged for a closer look

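Within a group of 4 libraries, a library was taken as apart when its gap to the nearest of the others was too large a part of the group's range by Dixon's 95% critical value. Of 87 groups examined, 8 met this, and chance gives about 1 in 20 such groups. WT replicate 2 in 1 mM glucose was apart for Itga11 (5.30, others 5.89 to 5.93), Itga2b (4.23, others 3.54 to 3.64) and Itga8 (1.98, others 2.78 to 2.92). KO replicate 2 in 1 mM glucose was apart for Itga2b (4.42, others 4.63 to 4.67) and Cyto replicate 3 for Lamb3 (-2.62, others 1.58 to 1.99). In 10 mM glucose Nuc replicate 4 was apart for Itga1 (5.15, others 5.61 to 5.65) and Nid1 (8.03, others 8.35 to 8.40), and WT replicate 3 for Nid1 (9.16, others 8.97 to 9).

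The other 30 results stand out because the fold change itself differed between media in limma, given as the signed value in 1 mM minus that in 10 mM glucose, where medium and batch cannot be told apart. They are up to 4 of the highest and 4 of the lowest called differences per comparison, among genes with a mean log2 level of at least 0. Further differences were called and are not listed, such as that of Itgb3 for Cyto against KO (-1.95, adjusted p = 6.58e-14). For WT against KO the differences above 0 were 0.66 ± 0.07 (adjusted p = 7.5e-08) for Itga5, 0.84 ± 0.22 (adjusted p = 0.00598) for Lama5, 0.47 ± 0.09 (adjusted p = 0.000318) for Lamb1 and 0.49 ± 0.10 (adjusted p = 0.000345) for Thbs2. Those below 0 were -1.73 ± 0.26 (adjusted p = 9.94e-06) for Itga1, -2.74 ± 0.89 (adjusted p = 0.0225) for Itgb4, -1.65 ± 0.36 (adjusted p = 0.00104) for Itgbl1 and -3.38 ± 0.98 (adjusted p = 0.0107) for Lamb3. For Cyto against KO the differences above 0 were 1.04 ± 0.16 (adjusted p = 7.75e-06) for Itga11, 1.65 ± 0.49 (adjusted p = 0.00699) for Itga9, 2.22 ± 0.12 (adjusted p = 2.32e-14) for Lama4 and 0.77 ± 0.13 (adjusted p = 2.75e-05) for Tnc. Those below 0 were -1.99 ± 0.57 (adjusted p = 0.00579) for Itga8, -3.85 ± 0.38 (adjusted p = 2.51e-09) for Itgbl1 and -1.99 ± 0.15 (adjusted p = 1.22e-11) for Thbs1. For Nuc against KO the differences above 0 were 0.26 ± 0.07 (adjusted p = 0.00602) for Itga5, 1.01 ± 0.31 (adjusted p = 0.0125) for Itgb8, 0.48 ± 0.09 (adjusted p = 0.000145) for Lamb1 and 0.36 ± 0.13 (adjusted p = 0.0269) for Tnc. Those below 0 were -1.73 ± 0.26 (adjusted p = 4.47e-06) for Itga2b, -2.15 ± 0.55 (adjusted p = 0.0028) for Itga8, -2.17 ± 0.36 (adjusted p = 2.5e-05) for Itgbl1 and -1.05 ± 0.16 (adjusted p = 7.67e-06) for Nid2. For Nuc against Cyto the differences above 0 were 1.5 ± 0.11 (adjusted p = 5.28e-11) for Itgb3, 2.48 ± 0.33 (adjusted p = 1.67e-06) for Itgb8 and 1.68 ± 0.38 (adjusted p = 0.00171) for Itgbl1. Those below 0 were -1.21 ± 0.27 (adjusted p = 0.00162) for Itga1, -1.25 ± 0.16 (adjusted p = 1.62e-06) for Itga11, -2.16 ± 0.49 (adjusted p = 0.00177) for Itga9 and -2.73 ± 0.12 (adjusted p = 1.05e-15) for Lama4.

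Leaving out 1 library ended some of these calls: the difference of Itgb4 for WT against KO without WT replicate 4 at high glucose (-2.33, adjusted p = 0.0571) and the difference of Tnc for Nuc against KO without Nuc replicate 2 at low glucose, Nuc replicate 4 at high glucose, KO replicate 1 at high glucose or KO replicate 4 at low glucose (0.29 to 0.34, adjusted p 0.051 to 0.0723).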

How the results depend on the processing

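Of 380 calls for an adhesion gene in a comparison or in a difference between media, 293 held under every alternative run and 87 were lost under at least 1. Quantile normalization ended 39 of 380 with the direction kept, and turned 2 more, which were no longer called either. A prior variance without trend ended 22, the 2 compared groups alone 20 of 298, the length trend removed 14 of 298, the libraries numbered 4 left out 11 of 141, array weights 5, equal library medians 3 and 1 added on the linear scale 3. Leaving out 1 library ended 295 of 5893. Counts of called adhesion genes kept within 1.5 times of the value given in every comparison, for example 23 to 30 for WT against KO (28) and 14 to 21 for Nuc against Cyto (17) in 10 mM glucose. In 1 mM glucose Nuc against WT ranged from 11 to 21 (15). The direction turned only for Fn1 in 1 mM glucose after quantile normalization, to 0 for Nuc against Cyto (adjusted p = 1) and to 0.16 for Cyto against WT (adjusted p = 0.349). Same-numbered libraries did not deviate together throughout (correlations of -0.18 to 0.36 over 45 pairs, 6 above 0.1), although those numbered 4 in 10 mM glucose did for Nuc with KO (0.36), Nuc with WT (0.23) and WT with KO (0.16), so the numbers were not taken as pairs; a replicate block ended 8 of 380 calls and gave 29 for WT against KO in 10 mM glucose and 21 for Nuc against Cyto in 1 mM glucose. Read depth is unknown, and some chains at low levels spread widely between libraries. The SD within a group reached 2.24 for Lamb3 in Cyto and 1.54 for Itgb4 in Nuc in 1 mM glucose. In 10 mM glucose it reached 1.18 for Itga8 and 1.08 for Itgb7, both in KO.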
